A study of Mus musculus with 9 samples.

Results

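The platelet-derived growth factor (PDGF) ligands and receptors were examined in RNA-seq libraries of mouse pancreatic neuroendocrine tumors and of normal islets. The members were chosen by name and are 6 of the 54347 genes in the table: the ligand genes Pdgfa, Pdgfb, Pdgfc and Pdgfd and the receptor genes Pdgfra and Pdgfrb. All 6 passed the filter on low values, which kept 15532 genes with 1 CPM (read counts scaled to library size) or more in 3 or more of the 9 libraries. The tumors came from INS-p25OE mice, a cross of Ins2-rtTA and tetOp-p25GFP animals in which doxycycline in the drinking water (from weaning at 3 to 4 weeks, at a dose on which the sources differ) turns on p25, the truncated activator of the kinase Cdk5, fused to GFP. The insulin promoter drives the transgene in beta cells, so that the stromal and vascular cells of a tumor are host cells. Libraries M1, M2 and M3 carry the tumor label with the added word Inulin and are the tumors the study calls functional. M4, M5 and M6 are labelled as tumors only and are those it calls non-functional. NI1, NI2 and NI3 are islets labelled C57BL/6, and the controls of the study were littermates without the transgenes, on the same C57BL/6 background. The study reports doxycycline for offspring from weaning and kept both genotypes in shared cages. Whether the islet donors received it is not given in the sources used here. A difference in doxycycline could therefore not be told apart from tumor state. M2 came from a female and the other 8 libraries from males. The age at collection is not given in the sources used here. Each label names 1 sample and the study's methods call its samples biological replicates, but the labels do not name the animal.

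PDGF ligands are secreted dimers that bring together and activate PDGFRα and PDGFRβ, receptor tyrosine kinases that signal through Ras, PI3 kinase and phospholipase C gamma. PDGF-B from endothelial cells recruits pericytes and smooth muscle cells, which carry PDGFRβ, to new vessels, and PDGFRα is best known on fibroblasts and other mesenchymal cells. Pancreatic neuroendocrine tumors are rich in vessels, and kinase inhibitors used against them block PDGF and VEGF receptors. PDGF-C and PDGF-D are made as latent proteins and become active only after proteolytic cleavage.

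On GRCm38, Pdgfa lay on chromosome 5 at 138976014 to 138997370 on the minus strand, and Pdgfb on chromosome 15 at 79995874 to 80014977, also on the minus strand. Pdgfc lay on the plus strand of chromosome 3 at 81036416 to 81214040, and Pdgfd on the plus strand of chromosome 9 at 6168584 to 6378850. The receptor genes are both on plus strands. Pdgfra was at 75152292 to 75198215 on chromosome 5 and Pdgfrb at 61045150 to 61085061 on chromosome 18. Each receptor gene has a related kinase gene as a neighbour, with 0 protein-coding genes between them. Csf1r, the receptor for CSF1, started 15.5 kb beyond Pdgfrb, and Kit, the receptor for stem cell factor, 377 kb beyond Pdgfra. Pdgfa overlaps the antisense gene 6330403L08Rik, which had 7.03 to 22.3 CPM. The library kit named by the study is not known to keep strand, so reads of that gene and of Pdgfa in the shared stretch cannot be told apart. The genes that overlap the other members had at most 0.0364 CPM.

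Libraries held 36468280 to 63637175 estimated reads. Some went against their labels or stood apart, so results are given with and without them. Cdk5r1 encodes p35, of which p25 is a fragment, and was at 149 to 401 CPM in the 6 tumors, 18.4 and 12.5 CPM in NI2 and NI3, but 280 CPM in the library labelled NI1. That library and M6 were the closest of all pairs: over 10168 genes above 10 CPM in both, their log2 ratios had an SD of 0.167, against 0.363 in the next closest pair, NI2 and NI3. The 6 PDGF genes shared this nearness, with M6 at 0.903 to 1.42 times the level of NI1. M4 had 32.1% mitochondrial reads, against 1.76 to 8.41% in the others, and a TMM factor of 0.693. The 10 beta cell markers summed to 18883 to 117230 CPM in tumors and 122391 to 365735 CPM in islets. The 10 acinar markers summed to 1.07 to 228.6 CPM in tumors. They summed to 343.2 CPM in NI1, 422.6 in NI2 and 6364 in NI3, so islet libraries also held exocrine RNA, NI3 by far the most. In bulk RNA, fewer cells of a type and less RNA per cell cannot be told apart, which holds for every value below.

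Pdgfa was the most abundant PDGF transcript and Pdgfrb the more abundant receptor in every library. Levels of different genes were set side by side only as CPM per kb of annotated exon. In the 3 islet libraries Pdgfa had 16.1 ± 4.70 CPM per kb (SD, n = 3), Pdgfrb 6.56 ± 1.95, Pdgfb 6.26 ± 0.821, Pdgfd 2.35 ± 0.0674, Pdgfra 0.383 ± 0.0668 and Pdgfc 0.163 ± 0.0188. Of the neighbours in this order, only Pdgfrb and Pdgfb overlapped in range. In the 6 tumors the order of the means was the same, at 30.9 ± 18.8 CPM per kb for Pdgfa, 13.0 ± 3.54 for Pdgfrb, 7.0 ± 2.66 for Pdgfb, 2.67 ± 1.14 for Pdgfd, 0.925 ± 0.512 for Pdgfra and 0.611 ± 0.465 for Pdgfc (SD, n = 6). There each neighbouring pair overlapped in range over the 6 libraries, except Pdgfd and Pdgfra. Within a library the order was Pdgfa, Pdgfrb, Pdgfb, Pdgfd, Pdgfra and Pdgfc in 7 of 9. In M1 Pdgfc stood above Pdgfra, and in NI3 Pdgfb stood above Pdgfrb. Pdgfa made up 60.3 to 82.6% of the summed ligand level per kb, and Pdgfrb 88.6 to 97.7% of the summed receptor level. Dividing by the longest annotated transcript instead of all exons raised Pdgfa further and put Pdgfb above Pdgfrb in the islet means, at 8.84 and 6.63 CPM per kb.

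**Figure D1:**
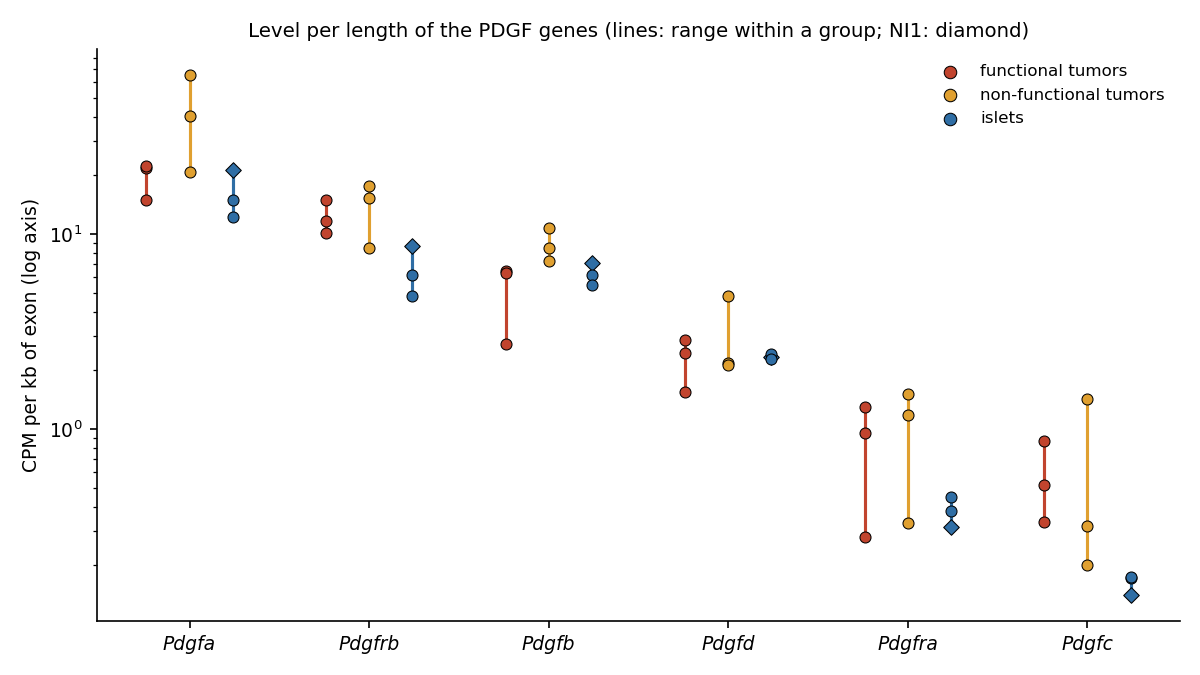
Level of each PDGF gene in CPM per kb of exon (log axis), with a point per library (functional tumors red, non-functional tumors yellow, islets blue, NI1 as a diamond) and a line for the range within each group. Pdgfa is highest and Pdgfrb stands far above Pdgfra in each group, while the range over all tumors meets that of islets for every gene but Pdgfc.

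Pdgfrb, the receptor of pericytes and vascular smooth muscle, had 63.7, 55.1 and 81.8 CPM in the functional tumors M1, M2 and M3. Of the non-functional tumors, M4 had 96.9, M5 84.2 and M6 46.2 CPM. The islet levels were 47.5 CPM in NI1, 33.9 in NI2 and 26.4 in NI3. All tumors but M6, which was just below NI1, lay above all islet libraries, and all 6 lay above NI2 and NI3. The means were 71.3 ± 19.4 CPM over 6 tumors and 35.96 ± 10.7 CPM over 3 islet libraries (± SD). The log2 fold change was 0.99 (SE 0.28), which did not pass over all genes (edgeR adjusted p = 0.152). With the library labelled NI1 left out Pdgfrb rose in tumors by 1.24 (SE 0.31, edgeR adjusted p = 0.0424), and with NI1 and M6 left out by 1.34 (SE 0.28, edgeR adjusted p = 0.0232). Over 27 alternatives the log2 fold change stayed between 0.81 and 1.43 and the adjusted p ran from 0.00275 to 0.582, under 0.05 in 6. With NI1 and each other library left out in turn, it passed in 2 of 8 fits, those without M2 or M6. DESeq2 on all 9 libraries gave an adjusted p of 0.0238. Pdgfrb is in a short list the study drew from these same libraries, so its difference here is not independent evidence.

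Pdgfra, the receptor of fibroblasts and mesenchymal progenitors, was scarcer and more uneven among tumors. Functional tumors had 2.80 (M1), 13.0 (M2) and 9.54 CPM (M3), and non-functional tumors 15.1 (M4), 11.9 (M5) and 3.33 CPM (M6). Islets had 3.17 (NI1), 3.83 (NI2) and 4.51 CPM (NI3). M2, M3, M4 and M5 lay above all islet libraries, at 9.54 CPM or more, while M1 and M6 lay below NI2 and NI3. The log2 fold change of 1.27 (SE 0.56) did not pass (edgeR adjusted p = 0.247), nor did it without NI1 (1.15, SE 0.68, edgeR adjusted p = 0.311). The tumors differed among themselves by 5.39-fold in Pdgfra and by 2.10-fold in Pdgfrb.

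Pdgfa encodes the ligand that acts on PDGFRα and is made by many epithelia. Functional tumors had 46.6 (M1), 68.4 (M2) and 69.7 CPM (M3), and non-functional tumors 203.3 (M4), 125.0 (M5) and 64.9 CPM (M6). Islets had 66.5 (NI1), 46.5 (NI2) and 37.9 CPM (NI3). All 6 tumors were above NI2 and NI3, though M1 only just, and M2, M3, M4 and M5 were above NI1. The log2 fold change was 0.94 (SE 0.45, edgeR adjusted p = 0.281) with all libraries and 1.19 (SE 0.54, edgeR adjusted p = 0.199) without NI1.

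Pdgfb, the endothelial ligand that binds both receptors, had 26.9 (M1), 11.4 (M2) and 26.3 CPM (M3) in functional tumors and 44.8 (M4), 35.3 (M5) and 30.1 CPM (M6) in non-functional tumors. Islets had 29.6 (NI1), 25.7 (NI2) and 22.8 CPM (NI3). The 3 non-functional tumors lay above every functional tumor and every islet library, M6 at 1.02 times NI1. In Pdgfb and Pdgfc, and in 8.7% of all genes, the 3 non-functional tumors were above the 3 islet libraries. For all tumors against islets the log2 fold change was 0.16 (SE 0.34, edgeR adjusted p = 0.829), and without M4 it was -0.0080.

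Pdgfc, a latent ligand that plasmin-type proteases activate, was the only member with all 6 tumors above all 3 islet libraries, at low counts of 36 to 242 reads. Functional tumors had 2.62 (M1), 1.70 (M2) and 4.40 CPM (M3), and non-functional tumors 7.29 (M4), 1.62 (M5) and 1.02 CPM (M6). Islets had 0.72 (NI1), 0.878 (NI2) and 0.892 CPM (NI3). Its log2 fold change of 1.90 (SE 0.67), the largest of the 6, did not pass (edgeR adjusted p = 0.182; DESeq2 adjusted p = 0.0527). Among all genes tested, 4.5% had the 6 tumors above the 3 islet libraries, and 16.6% had them above NI2 and NI3, which held for Pdgfa, Pdgfc and Pdgfrb.

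Pdgfd, a latent ligand that binds mainly PDGFRβ, had the steadiest islet level, at 7.41, 7.64 and 7.21 CPM in NI1, NI2 and NI3. Functional tumors had 9.05 (M1), 4.87 (M2) and 7.74 CPM (M3), and non-functional tumors 15.2 (M4), 6.90 (M5) and 6.69 CPM (M6). Of the tumors, 3 lay above and 3 below the islet range. The log2 fold change was 0.18 (SE 0.35, edgeR adjusted p = 0.812), and without M4 it was -0.079.

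**Figure D2:**
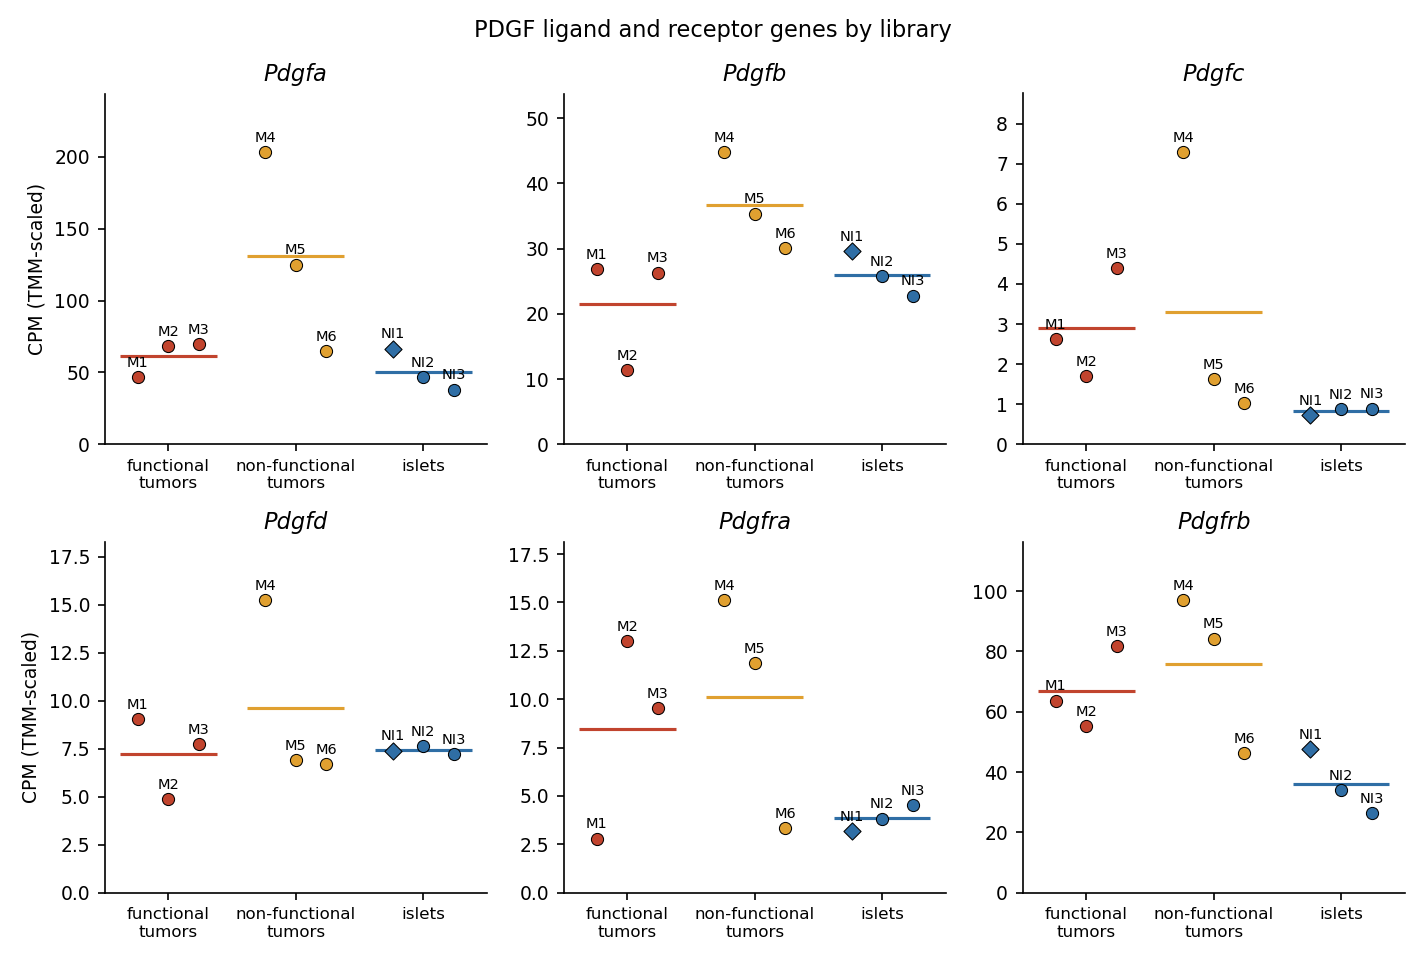
TMM-scaled CPM of the 6 PDGF genes in each library, with axes from 0, group means as horizontal lines and the library labelled NI1 as a diamond. M4 is the highest point in every panel, and M6 lies beside NI1 for all members.

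In all tumors against islets, 0 of 6 members passed an adjusted p of 0.05 in edgeR, where 0.258% of all genes did so, 0 of them higher. At an unadjusted p under 0.05, 3 members were higher (Pdgfc, Pdgfra and Pdgfrb), against 10.7% of all genes, and the log2 fold change was above 0 for all 6, against 52.5% of all genes. Without NI1, 1 member (Pdgfrb) was called higher, as were 5.34% of all genes, and the same member without NI1 and M6, as were 5.75%. DESeq2 on 9 libraries called 1 (Pdgfrb) where 4.92% of all genes were called higher, limma-trend called 0 beside 0.0129% of all genes higher, and limma-voom with library weights called 1 (Pdgfrb) beside 13.4%. When libraries were scaled by their totals alone, the median of all genes moved to 0.25 and the genes at an unadjusted p under 0.05 went from 1655 higher and 1419 lower to 1627 higher and 552 lower. Relative to that median the 6 members remained above 0, from 0.05 for Pdgfb to 1.78 for Pdgfc.

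**Figure D3:**
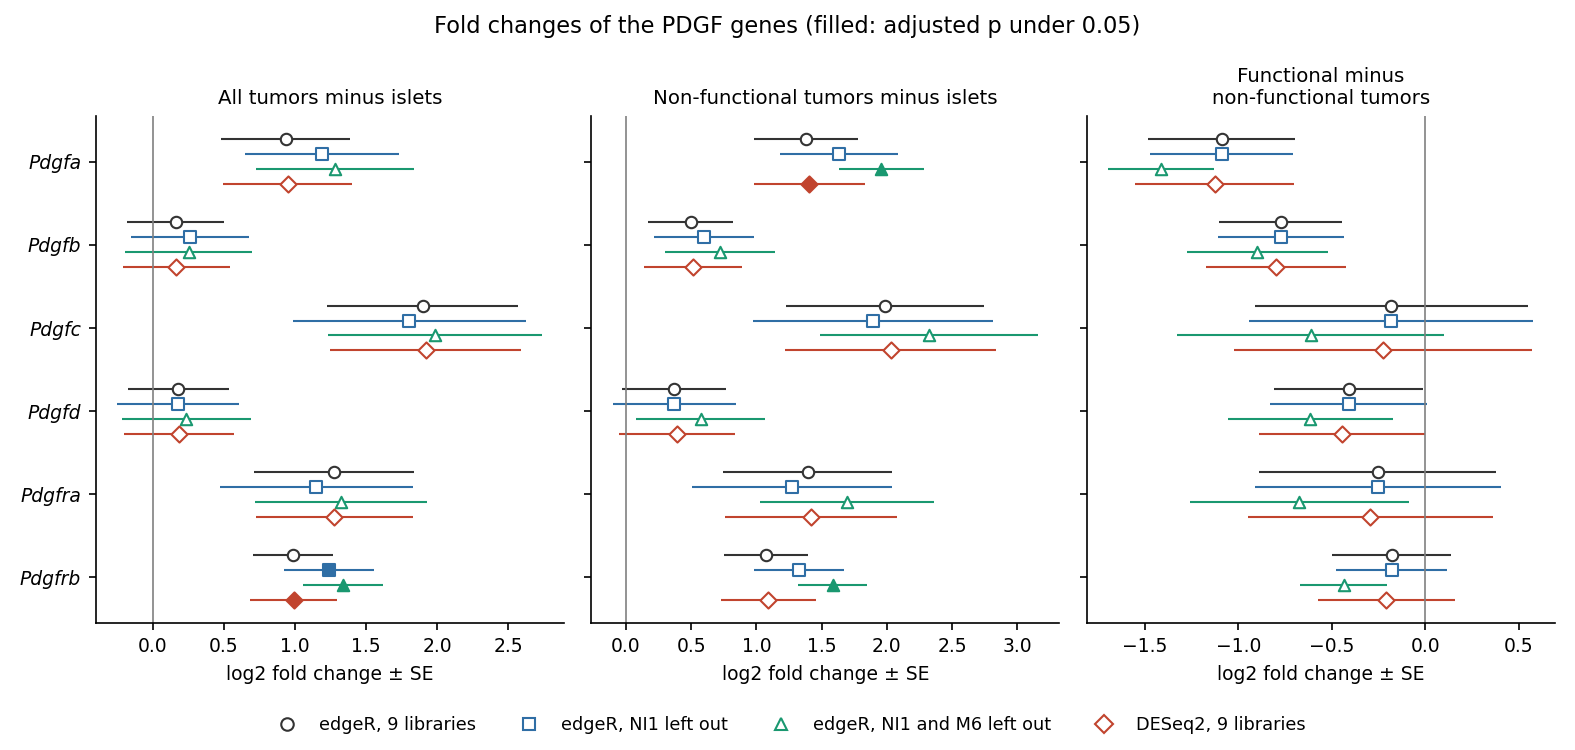
Log2 fold change with its SE for each PDGF gene in 3 comparisons, fitted by edgeR on 9 libraries, without NI1 and without NI1 and M6, and by DESeq2. Filled symbols mark an adjusted p under 0.05, which Pdgfrb reaches in 3 of the 4 fits of all tumors, and which Pdgfa and Pdgfrb reach in some fits of non-functional tumors.

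Both tumor groups share the islet libraries as controls, so their differences are set side by side. Functional tumors against islets gave log2 fold changes of 0.29 (SE 0.39) for Pdgfa, -0.28 (SE 0.33) for Pdgfb, 1.80 (SE 0.76) for Pdgfc, -0.04 (SE 0.40) for Pdgfd, 1.14 (SE 0.64) for Pdgfra and 0.89 (SE 0.32) for Pdgfrb. Non-functional tumors gave 1.38 (SE 0.40), 0.50 (SE 0.33), 1.99 (SE 0.76), 0.37 (SE 0.40), 1.39 (SE 0.65) and 1.07 (SE 0.32) in the same order. In edgeR 0 members passed in either comparison, where 0.476% and 0% of all genes passed. At an unadjusted p under 0.05, 2 and 3 members were higher, against 11.3% and 8.27% of all genes. DESeq2 called 0 members in functional tumors, beside 4.99% of all genes called higher, and 1, Pdgfa, in non-functional tumors (adjusted p = 0.044), beside 1.56%. Without NI1 alone 0 members passed in either comparison: Pdgfrb had an edgeR adjusted p of 0.0790 in functional and 0.0690 in non-functional tumors, and Pdgfa 0.453 and 0.0783. With NI1 and M6 left out, Pdgfrb rose in functional tumors by 1.15 (SE 0.24, edgeR adjusted p = 0.0336), as 5.88% of all genes were called higher. M6 is not a functional tumor and entered that fit only through the spread shared by the 3 groups. Under the same omission Pdgfa rose by 1.96 (SE 0.32) and Pdgfrb by 1.58 (SE 0.26) in the non-functional tumors M4 and M5 (edgeR adjusted p = 0.0249 and 0.0251), where 5% of all genes were called higher. Pdgfrb passed in 1 of 19 alternatives for functional and 1 of 17 for non-functional tumors, and Pdgfa in 0 of 19 and 2 of 17.

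Functional tumors, in the study's use, come from animals with raised hormone in the blood, and were set against non-functional tumors to ask whether PDGF genes differ with that state. The log2 fold changes farthest from 0 were those of Pdgfa and Pdgfb, both below 0. Pdgfa had 61.6 ± 13.0 CPM in functional and 131 ± 69.4 CPM in non-functional tumors (SD, n = 3 each), a log2 fold change of -1.09 (SE 0.39, edgeR adjusted p = 0.459). Pdgfb had 21.5 ± 8.79 and 36.7 ± 7.47 CPM (SD, n = 3 each), a log2 fold change of -0.77 (SE 0.33, edgeR adjusted p = 0.481). The other members had log2 fold changes of -0.41 to -0.18. In edgeR 0 members and 0% of all genes passed, 2 members were lower at an unadjusted p under 0.05 (5.58% of all genes), and DESeq2 called 0 members, beside 0.715% of all genes. Pdgfb was the only member with all 3 non-functional tumors above all 3 functional ones, as were 6.24% of all genes. Leaving out M4 turned the log2 fold changes of Pdgfc (1.14), Pdgfd (0.09), Pdgfra (0.15) and Pdgfrb (0.04) above 0, while Pdgfa stayed at -0.63 and Pdgfb at -0.60. Scaling by library totals alone also turned those 4 above 0, but it moved the median of all genes to 0.32, and relative to it 5 of the 6 remained below 0. Without M2, the only library from a female and the lowest for Pdgfb, Pdgfb was at -0.47 and Pdgfa at -1.17. The medians of the endothelial and macrophage markers also lay below 0 in this comparison. So did those of the platelet (-1.45), mural (-0.19), fibroblast (-0.18), beta cell (-0.13) and ductal (-0.12) markers, while that of the Schwann cell markers was 0.20. Of the 12 endothelial markers 0 had a log2 fold change above 0 (median -0.83, 4 lower at an unadjusted p under 0.05), and of the 10 macrophage markers 0 (median -0.80, 1 lower). The endothelial markers summed to 382 to 874 CPM in functional and 778 to 1216 CPM in non-functional tumors, and the macrophage markers to 445 to 718 and 472 to 1255 CPM. The 10 acinar markers summed to 1.07 to 25.3 and 26.1 to 228.6 CPM, and 8 of the 9 tested were lower at an unadjusted p under 0.05. In edgeR 0 markers of the endothelial, macrophage and acinar lists passed an adjusted p of 0.05. The part of any of the listed cell types in the PDGF differences was not tested.

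M4 was the highest of the 9 libraries for all 6 members, as it was for 10.8% of all genes. It stood at 1.63 times the next tumor for Pdgfa, 1.68 times for Pdgfd and 1.66 times for Pdgfc, and at 1.27 times for Pdgfb, 1.16 times for Pdgfra and 1.15 times for Pdgfrb. The count depended on the scaling, since it fell to 2 members (Pdgfa and Pdgfd; 3.18% of all genes) under library totals and to 4 (Pdgfa, Pdgfb, Pdgfc and Pdgfd; 7.83% of all genes) under totals without mitochondrial reads. Under TMM M4 was also highest for 10 of 12 mural, 10 of 12 fibroblast and 8 of 10 macrophage markers, but for 1 of 12 endothelial markers. The part of the mitochondrial share, or of these cell types, in the PDGF levels of M4 was not tested.

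Ratios within a library were taken from log2(CPM + 1), which understates the ratio to a gene as scarce as Pdgfra. The log2 ratio of Pdgfb to Pdgfrb, the ligand and receptor of pericyte recruitment, was -0.67, -0.38 and -0.21 in NI1, NI2 and NI3. Functional tumors had -1.21 (M1), -2.18 (M2) and -1.60 (M3), and non-functional tumors -1.10 (M4), -1.23 (M5) and -0.60 (M6). All 6 tumors lay below NI2 and NI3, and M6 alone lay above NI1. The mean of 3 functional tumors was -1.67 ± 0.49, of 3 non-functional tumors -0.98 ± 0.33 and of 3 islet libraries -0.42 ± 0.23 (SD, n = 3 each). By contrast the log2 ratio of Pdgfrb to Pdgfra overlapped widely, at 2.0 to 4.09 in tumors and 2.32 to 3.54 in islets. The log2 ratio of Pdgfa to Pdgfb was 0.77 to 2.49 in tumors and 0.71 to 1.14 in islets, with 4 tumors above all islet libraries and 5 above NI2 and NI3.

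Pdgfrb, Pdgfra and Pdgfb were also set against markers of the cells that usually make them, and Pdgfa against beta cell markers. Each value is the log2 ratio to the geometric mean of the list. Which cells made Pdgfa was not tested. Pdgfrb against 12 mural markers was 0.98 to 1.58 in tumors and 0.70 to 1.44 in islets, a difference in means of 0.29, smaller than the SD of 0.37 over the 3 islet libraries. Without NI1 the difference was 0.48, against an SD of 0.23 over NI2 and NI3. Pdgfra against 12 fibroblast markers was -1.44 to -0.17 in tumors and -0.67 to -0.29 in islets. Pdgfb against 12 endothelial markers was -0.70 to 0.25 in tumors and -0.45 to -0.25 in islets. Pdgfa against 10 beta cell markers was -4.76 to -2.35 in tumors and -5.89 to -4.11 in islets, with all 6 tumors above NI2 and NI3. The summed CPM of the beta cell markers was lower in tumors, as given above, but 3 of the 10 had a log2 fold change above 0. Their mean log2(CPM + 1), which the ratio uses, overlapped, at 9.20 to 10.33 in tumors and 10.18 to 11.18 in islets. The part of cell composition in any of these levels was not tested.

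**Figure D4:**
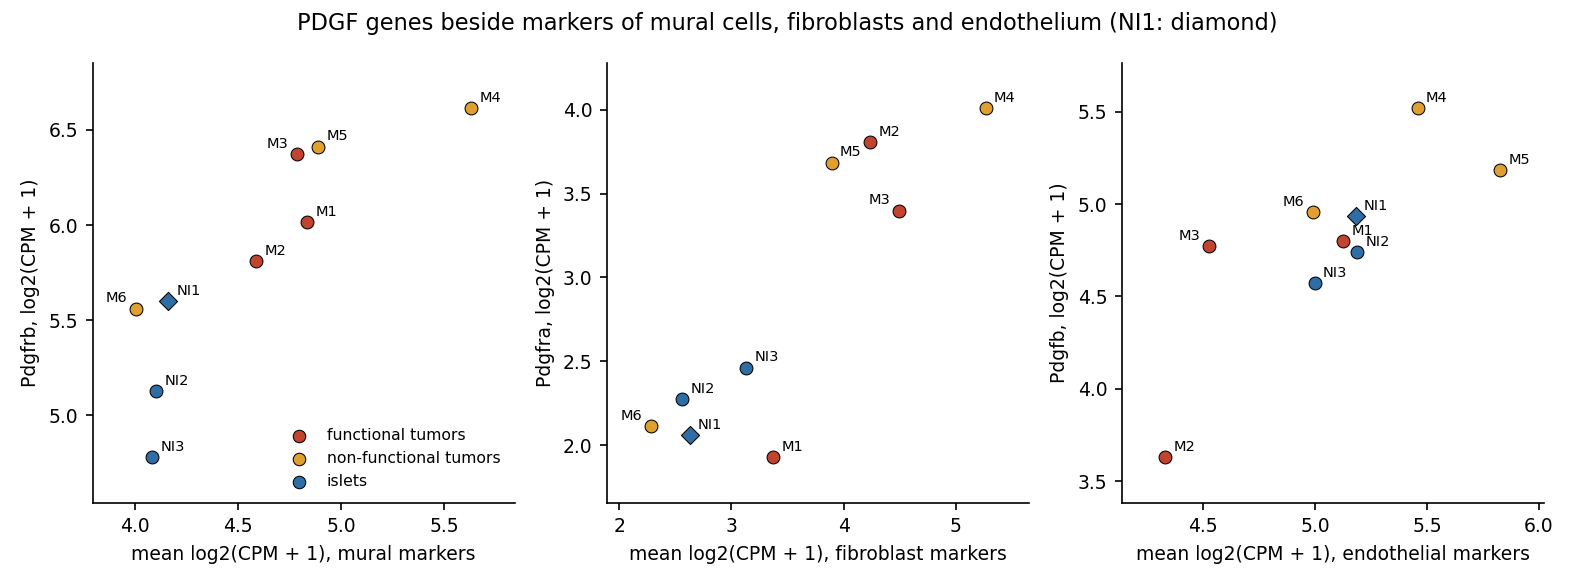
Log2(CPM + 1) of Pdgfrb, Pdgfra and Pdgfb (y axes) against the mean log2(CPM + 1) of mural, fibroblast and endothelial markers (x axes), with a labelled point per library. M4 has the highest mural and fibroblast means, M6 and NI1 lie side by side near NI2 and NI3 in the first 2 panels, and M2 is lowest for both Pdgfb and the endothelial markers.

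The other genes of the pathway are given by role, from binding proteins outside the cell to transducers inside it. The 8 genes listed as co-receptors and binding proteins had a median log2 fold change of 0.83, against 0.03 for all genes. Of these 0 passed with all libraries, 5 were higher at an unadjusted p under 0.05, and 3 rose without NI1. With all libraries 6 of the 8 had a log2 fold change above 0, while Nrp1 (-0.42) and Pdgfrl (-0.14) lay below it. Sparc, a matrix protein that binds PDGF-B, averaged 634.6 ± 289.0 CPM over 6 tumors and 231.5 ± 101 CPM over 3 islet libraries (± SD), a log2 fold change of 1.45 (SE 0.42), and 1.86 without NI1 (SE 0.48, edgeR adjusted p = 0.0445). Lrp1, an endocytic receptor that PDGFRβ phosphorylates, rose by 1.58 without NI1 (SE 0.38, edgeR adjusted p = 0.036), from 38.4 and 43.7 CPM in NI2 and NI3 to between 82.3 and 200.4 CPM in tumors. Lrp8, a related lipoprotein receptor, had a log2 fold change of 1.30 with all libraries (edgeR adjusted p = 0.246), rose without NI1 by 2.68 (SE 0.37, edgeR adjusted p = 0.00572) and was at 69.0 CPM in NI1 beside 74.0 CPM in M6. Of 7 proteases that process PDGF ligands (median 0.71), 0 passed with all libraries (edgeR; at an unadjusted p under 0.05, 3 were higher and 1 lower), and 1, the proprotein convertase Pcsk6, fell by 1.76 without NI1 (SE 0.37, edgeR adjusted p = 0.0234). Plat, the tissue plasminogen activator that cleaves PDGF-C, had 15.1 to 35.8 CPM in tumors and 17.2, 11.7 and 9.44 CPM in NI1, NI2 and NI3, with a log2 fold change of 0.87 (SE 0.32, edgeR adjusted p = 0.189). Plat, Nrp1 and Pdgfrl were named after their values were seen.

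The 31 signal transducers had a median of 0.04, with 0 called and 2 in each direction at an unadjusted p under 0.05. Without NI1, 1 of them passed, the kinase Map2k1 (MEK1), which fell by 1.09 (SE 0.22, edgeR adjusted p = 0.0208). The 9 phosphatases and ubiquitin ligases that restrain the receptors had a median of 0.01 and 0 calls with or without NI1, from -0.52 (SE 0.17, edgeR adjusted p = 0.168) for Ptpn6 to 0.34 (SE 0.24, edgeR adjusted p = 0.449) for Ptprj. In this list 1 gene was lower at an unadjusted p under 0.05 with all libraries, and 1 in each direction without NI1.

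Among 8 genes of the related VEGF family the median was -0.22 and 0 passed with all libraries (at an unadjusted p under 0.05, 1 was higher and 2 lower). Vegfd, a ligand of the lymphatic receptor Flt4, rose without NI1 by 4.31 (SE 1.04, edgeR adjusted p = 0.0364). Its level was 0.171 and 0.471 CPM in NI2 and NI3, near the floor (lowest count 7 reads), and 1.18 to 11.8 CPM in tumors. Among 7 related class III receptor kinases and their ligands the median was 0.49 and 0 passed with all libraries (2 in each direction at an unadjusted p under 0.05). Kit had a log2 fold change of 1.30 with all libraries (edgeR adjusted p = 0.236) and rose without NI1 by 2.28 (SE 0.53, edgeR adjusted p = 0.0315), while Csf1r, the neighbour of Pdgfrb, had a log2 fold change of 1.08 (SE 0.35, edgeR adjusted p = 0.168) and 1.25 without NI1 (edgeR adjusted p = 0.0985). Csf1r is in the same short list of the study as Pdgfrb.

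**Figure D5:**
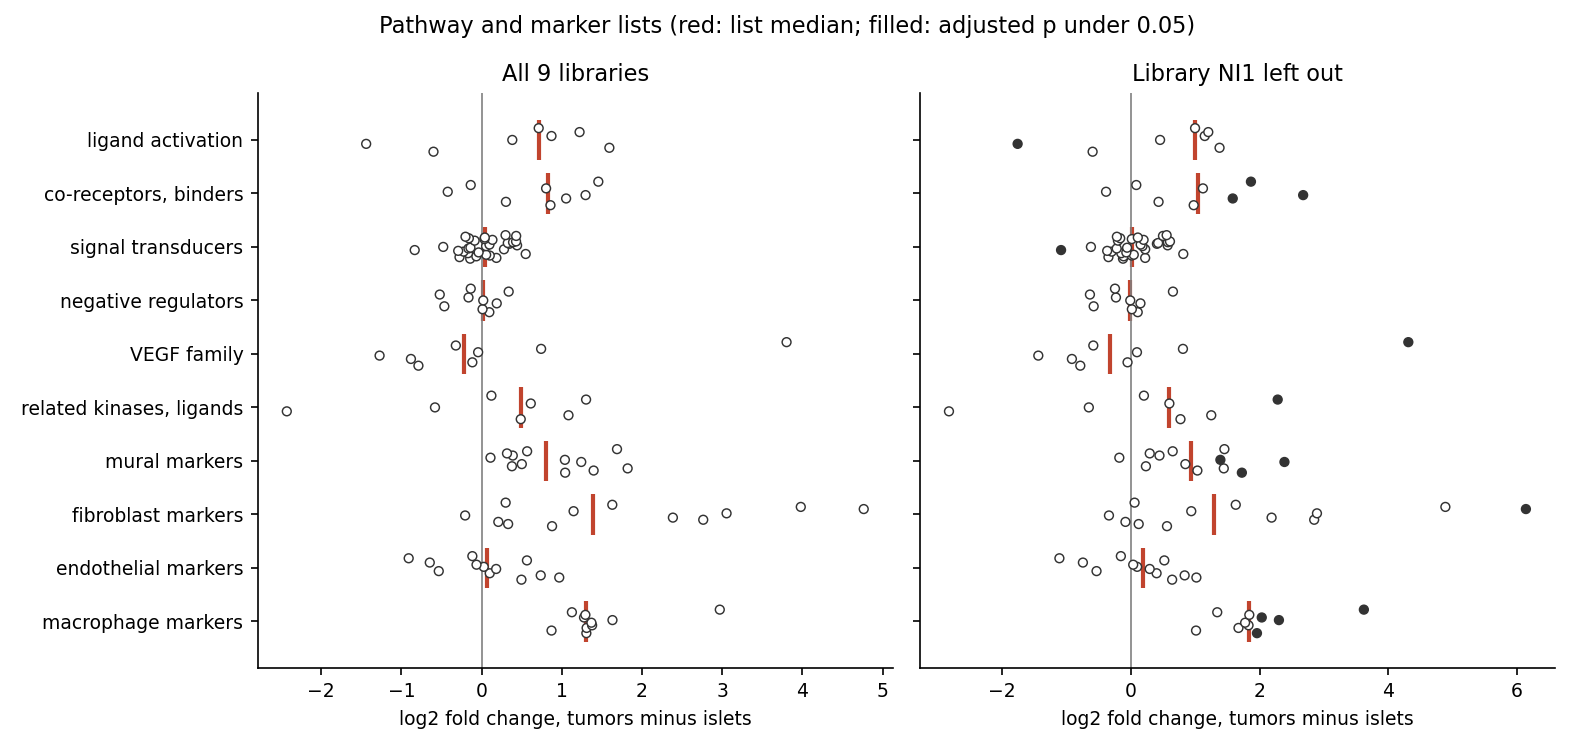
Log2 fold change of tumors against islets for each gene of 6 pathway lists and 4 marker lists, with all 9 libraries (left) and without NI1 (right). Red bars are list medians and filled points have an adjusted p under 0.05. The transducers and negative regulators sit around 0, and the VEGF family median lies to the left of it. The ligand activation, co-receptor, related kinase, mural, fibroblast and macrophage medians lie to the right of 0.

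Markers of the cells that usually carry PDGF receptors had medians above 0, like the receptors. The 12 mural markers had a median log2 fold change of 0.80 and summed to 579 to 1563 CPM in tumors and 514 to 622 CPM in islets. Of these 0 passed with all libraries (3 higher at an unadjusted p under 0.05), and 3 rose without NI1: Abcc9 by 1.72 (SE 0.29), Mcam by 1.39 (SE 0.25) and Kcnj8 by 2.38 (SE 0.62), with edgeR adjusted p of 0.0108, 0.014 and 0.0461. With all libraries their log2 fold changes were 1.04, 1.04 and 1.24. Without NI1, 11 of the 12 mural markers lay above 0 and Myh11 lay at -0.18, and 5.34% of all genes were called higher. The 12 fibroblast markers had a median of 1.39 and summed to 136 to 682 CPM in tumors and 163 to 270 CPM in islets. Without NI1 the median was 1.28, with all markers above 0 but Dpt (-0.086) and Gsn (-0.34). In that fit 1 marker passed, the microfibril protein Mfap5, which rose by 6.14 (SE 1.37, edgeR adjusted p = 0.028), against 4.76 with all libraries. Mfap5 was at 0.195 and 0.124 CPM in NI2 and NI3, near the floor, and at 1.30 to 35.4 CPM in tumors. The 12 endothelial markers had a median of 0.06, with 0 calls and 0 at an unadjusted p under 0.05 in either fit, from -0.91 for Tek to 0.97 for Cldn5. The 10 macrophage markers had a median of 1.31 and summed to 445 to 1255 CPM in tumors and 178 to 434 CPM in islets. Of these, 4 rose without NI1: Cd68 by 2.30 (SE 0.44), Adgre1 by 1.96 (SE 0.41), Mrc1 by 3.62 (SE 0.92) and Cx3cr1 by 2.03 (SE 0.54), with edgeR adjusted p of 0.0171, 0.0238, 0.0427 and 0.0484. With all libraries these were 1.63, 1.31, 2.97 and 1.28 on the log2 scale. None of the macrophage, fibroblast or endothelial markers passed with all 9 libraries (9, 6 and 0 higher at an unadjusted p under 0.05).

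Platelets store PDGF, and 4 of 7 platelet markers passed the filter, summing over the list to 4.07 to 30.2 CPM in tumors and 4.35 to 6.93 CPM in islets. The highest sum was that of M5, where Gp1bb alone had 23.1 CPM. Without NI1, 1 of the 4 passed: Pf4 rose by 3.60 (SE 0.89, edgeR adjusted p = 0.0391), against 2.51 with all libraries. Pf4 was at 0.0976 and 0.347 CPM in NI2 and NI3, near the floor, and at 1.23 to 5.79 CPM in tumors. Itga2b lay below 0, at -0.016 with all libraries and -0.14 without NI1. The median of the 4 was -0.42 in functional and 1.90 in non-functional tumors against islets. Of 7 Schwann cell markers 3 passed the filter and 0 were called, with the highest log2 fold change at 0.38 for Erbb3, and of 8 ductal markers 6 passed the filter and 0 were called, from -0.49 for Spp1 to 2.90 for Krt19 (edgeR; 0 Schwann cell and 2 ductal markers were higher at an unadjusted p under 0.05). With all libraries 0 of 10 beta cell and 0 of the 9 acinar markers tested passed, and at an unadjusted p under 0.05, 3 and 8 were lower and 1 and 0 higher. Without NI1 the beta cell gene G6pc2 fell by 1.78 (SE 0.44, edgeR adjusted p = 0.0388) and the acinar gene Cela1 fell by 6.39 (SE 1.26, edgeR adjusted p = 0.0192). The part of any of these cell types in the PDGF levels was not tested.

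The genes whose levels were most like each member over the 9 libraries were found by Pearson's r of log2(CPM + 1), as a description over libraries that share groups and scaling. For Pdgfrb they included Stab1 (r = 0.983), a scavenger receptor, and Mmp11 (0.978), a stromal protease. For Pdgfra they were Cd200r4 (0.979), the secreted Wnt agonist Rspo1 (0.944) and AA467197 (0.943), all scarce, at 0.0352 to 2.89 CPM. For Pdgfa they were Ms4a6c (0.986), Vsir (0.979) and the small nuclear RNA Rn7sk (0.978). For Pdgfb they were Slc44a2 (0.990), Tspan17 (0.980) and Cers4 (0.951). For Pdgfc they were Col28a1 (0.985), the activin antagonist Fst (0.984) and the actin cross-linker Flna (0.980). For Pdgfd they were the membrane linker Msn (0.973), Ch25h (0.934) and Rai14 (0.921). Among the members themselves, Pdgfrb went most closely with Pdgfa (0.803) and Pdgfc (0.799), and Pdgfb with Pdgfra least closely (-0.02). Of the 18 genes found, 3 for each member, 1 was also among the top 3 by Spearman's rho and 15 were without NI1. Without M4, 0 of the 3 found for Pdgfra and 0 of the 3 found for Pdgfrb stayed in the top 3.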

How the data were processed

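RNA was measured in 6 tumor and 3 islet libraries. The authors extracted RNA, sequenced it as single-end reads, trimmed these with Trimmomatic 0.38 and ran Salmon 1.4.0 on mm10. The step from transcripts to genes is not given in the sources used here. The deposited table is named for TPM but holds whole-number estimated counts of reads per gene, which the authors had not normalized. Symbols and positions came from GENCODE for GRCm38, in which 54094 of 54347 identifiers were found.

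A gene was tested where 3 or more of the 9 libraries reached 1 CPM. Main tests were two-sided quasi-likelihood F tests (edgeR 4.0.16, R 4.3.3) after TMM scaling, with Benjamini-Hochberg adjustment over all genes tested and a threshold of 0.05. The 6 tumors formed a single group against islets, and the other comparisons used a fit of 3 groups. Each SE is the absolute log2 fold change over the root of its F value. Fits with a library left out kept the same genes. Ratios and likeness used log2(CPM + 1). Depth was 36468280 to 63637175 estimated reads and is least precise for Pdgfc. Alternatives covered scaling, filter, tool (DESeq2 1.42.0, limma 3.58.1), grouping, mitochondrial genes, a replicate block and left-out libraries. Leaving out NI1 with another library, DESeq2 without NI1, and M4 under other scalings or left out of the likeness were chosen after seeing the data. The code was tested on simulated data.

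The PDGF genes, the pathway and marker lists and the rule for named genes were chosen with earlier results of these data known. The rule named the 6 members, from each list up to 6 genes past the threshold with all libraries or without NI1 (otherwise the highest and the lowest), the 3 genes most like each member, and Cdk5r1. Some of these genes and of the marker genes are not reported here. P-values weigh each difference between groups against the spread between these samples.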

Additional observations from a re-analysis of the deposited data

How the results depend on the processing

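The counts of genes past the threshold moved more than the fold changes of the PDGF genes. For tumors against islets edgeR called 40 genes; library totals gave 66, no filter 104, the mean of both tumor groups 98, DESeq2 1252, DESeq2 without NI1 2950 and limma-voom with library weights 4167. With NI1 and another library left out it called 931 (M1), 1327 (M2), 972 (M3), 1107 (M4), 1078 (M5), 1451 (M6), 197 (NI2) and 84 (NI3), and leaving out each library in turn gave 7 to 1321, the highest without NI1. For functional against non-functional tumors edgeR called 0; no filter gave 1, limma-trend 1, DESeq2 111, and leave-one-out fits 0 to 1. For functional tumors against islets it called 74; library totals gave 115, no filter 433, limma-trend 136, DESeq2 1556, NI1 and M6 left out 1455, and leave-one-out fits 0 to 1242. For non-functional tumors against islets it called 0; library totals gave 1, no filter 36, limma-trend 1, DESeq2 394, NI1 and M6 left out 1078, and leave-one-out fits 0 to 630. The cause was not tested. Only functional tumors and islets share replicate numbers: a fit of their 6 libraries called 130 genes, and 35 with the replicate number as a block. Deviations of same-numbered samples correlated at -0.05, 0.03 and -0.16 and 0 of 3 lay closest to their own number. With 3 pairs, and NI1 among them, this check cannot show whether the numbers pair the samples.

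Of the PDGF log2 fold changes, those of Pdgfa, Pdgfc, Pdgfra and Pdgfrb for all tumors against islets kept their direction in 27 of 27 alternatives. Leaving out each library in turn, Pdgfb for all tumors ran from -0.0080 (without M4) to 0.33 and Pdgfd from -0.079 (without M4) to 0.30, and Pdgfd was -0.075 without NI1 and M4. For functional against non-functional tumors the same ranges were -0.61 to 1.14 for Pdgfc, -0.64 to 0.091 for Pdgfd, -0.71 to 0.16 for Pdgfra and -0.44 to 0.037 for Pdgfrb. All 4 turned above 0 without M4 (Pdgfra to 0.15), Pdgfra without M1 (0.16) and Pdgfc without M2 (0.091) and by limma-trend (0.22). Library totals turned Pdgfc (0.43), Pdgfd (0.035), Pdgfra (0.19) and Pdgfrb (0.22). For functional tumors against islets the ranges were -0.47 to 0.030 for Pdgfb and -0.23 to 0.18 for Pdgfd, above 0 without M2, and library totals (0.087 and 0.33) and no filter (Pdgfd, 0.017) turned them. For non-functional tumors Pdgfd ran from -0.13 (without M4) to 0.60. In none of these did the gene pass the threshold. The log2 level of Pdgfa over Pdgfrb per kb was 1.17, and 1.75 by the longest transcript. Depth limits Pdgfc most, with 36 reads in NI2 and in NI3.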
